A study of Gallus gallus with 6 samples.

Results

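The 100 genes described here were those whose RNA level differed least between the ovaries of 6 laying hens. They were chosen from 21164 genes with an identifier. The 100 genes with the highest mean level were set aside first, and 3674 of the remaining genes were eligible, since none of their 6 values was below an FPKM of 20. FPKM counts the sequenced fragments of a gene per length of transcript and per number of mapped fragments in the library. For each eligible gene the highest of the 6 FPKM was divided by the lowest, and the 100 genes with the smallest ratio were taken. The measured values themselves therefore chose the members. Their small spread, and any small difference between breeds in them, are given as a description without a test.

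The ovaries came from 3 Yaoshan (YS) hens, an indigenous Chinese breed, and 3 GYR hens, with 1 library per hen and no experimental treatment. GYR hens have a YS grandfather: their mothers came from YS cocks and recessive white feather layers, and their fathers were green-shell cocks with yellow feathers. All hens were hatched together, kept on the same feed and killed at about 37 weeks of age, and the visible follicles were removed before RNA was taken. The study compared the breeds to look for ovarian genes that go with laying performance. The sample records name the ovary as tissue, while their extraction note speaks of retina, and the labelled tissue could not be checked against marker genes because the expression values carry Ensembl identifiers that no table used here pairs with gene names. The members are for the same reason given by identifier, without function, position or sequence.

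Every cell needs a set of genes for making and degrading proteins, splicing RNA and producing energy, and such housekeeping genes are often transcribed at similar levels in different individuals. Genes of steady level serve as internal references in quantitative PCR, where the level of a gene of interest is expressed relative to a reference transcript. The study used β-actin for this purpose, whose Ensembl identifier is not known here, so it was not looked up among the members. In a bulk tissue sample a steady level is a property of the whole mixture of cells, so fewer cells of a type and less RNA per cell cannot be told apart, and opposite shifts in different cells can cancel.

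Among the libraries, the summed FPKM of the named genes ranged from 461965 to 506138. FPKM do not hold the number of reads of a gene, and the counting error of a value was not estimated here. Relative depth, read from the steps between low FPKM, was 0.99 to 1.29 times that of YS_1, with GYR_2 the deepest. The paper lists clean reads per library, also with the most for GYR_2. Its fewest were for YS_1, which the steps placed just above YS_2. The 20 most abundant genes held 9.67% of the summed FPKM in YS_1 and 15.1% in YS_3, with the other libraries in between. The 100 members together held 1.21% to 1.33% of it.

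The ratio of the highest to the lowest FPKM ran from 1.06 to 1.18 over the members, with a median of 1.15. Over the 3674 eligible genes the median ratio was 1.57 and the highest was 52.1. A ratio of at most 1.1 was found for 10 eligible genes, at most 1.2 for 141, and at most 2 for 3002 (81.7%). Ovarian genes of this abundance thus commonly differed by more than 1.5 times between some pair of hens, and the members lie at the narrow end of a continuous distribution. The coefficient of variation over the 6 ovaries was 1.84% to 7.33% in the members (median 5.24%) and had a median of 17.1% over the eligible genes.

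**Figure D1:**
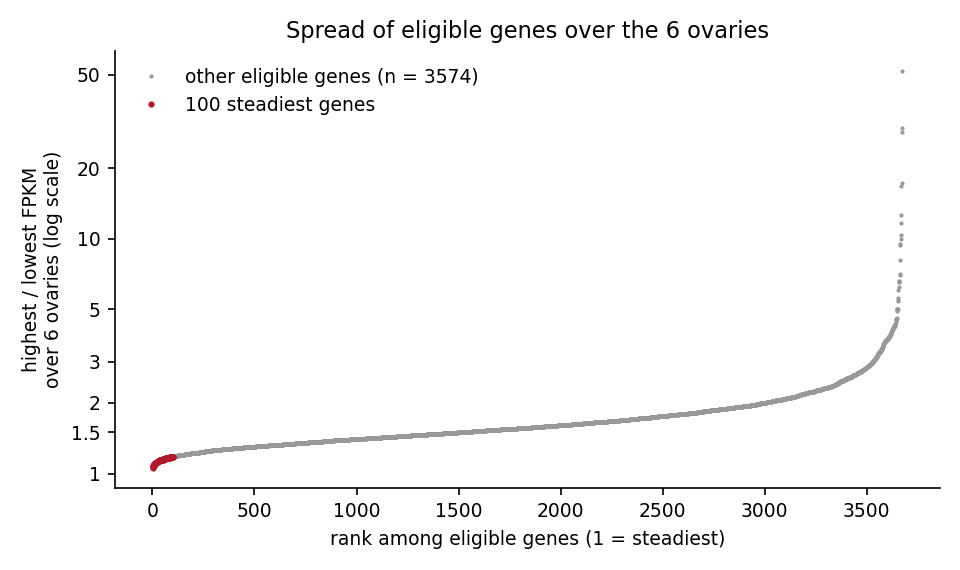
Ratio of the highest to the lowest FPKM over the 6 ovaries (log scale) for each of the 3674 eligible genes, ordered from the steadiest. The 100 members (red) end at a ratio of 1.18, with no gap to the genes that follow.

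In the values that follow, the ovaries of a breed are given in the order of their numbers. The steadiest gene of all was ENSGALG00000033092. It stood at an FPKM of 66.3, 65.7 and 67.8 in the YS hens and 66.9, 66.0 and 64.2 in the GYR hens. The highest value, in YS_3, was 1.06 times the lowest, in GYR_3, and the breeds overlapped. Its mean was 66.6 ± 1.12 (SD, n = 3) in YS and 65.7 ± 1.34 (SD, n = 3) in GYR.

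The next members had ratios of 1.07 to 1.08. ENSGALG00000000907 was listed at 66.3, 69.0 and 69.3 FPKM in the YS hens and at 68.9, 64.6 and 68.9 in the GYR hens. The low value belonged to GYR_2, and the remaining GYR ovaries lay within the YS range. ENSGALG00000007709 measured 58.6, 56.5 and 57.6 FPKM in the YS ovaries and 60.6, 56.9 and 58.6 in the GYR ovaries. It was highest in GYR_1 and lowest in YS_2, and the breeds overlapped. ENSGALG00000007246 measured 41.2, 40.1 and 39.5 FPKM in YS and 39.0, 38.3 and 39.6 in GYR. Here GYR_1 and GYR_2 were below every YS ovary and GYR_3 was not, with means of 40.3 ± 0.824 (SD, n = 3) in YS and 39.0 ± 0.665 (SD, n = 3) in GYR.

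A pair of the first 10 members lay near the lower limit of abundance. ENSGALG00000014652 had an FPKM of 23.5, 23.3 and 22.1 in the YS hens and of 22.6, 23.8 and 23.3 in the GYR hens. ENSGALG00000003249 had an FPKM of 27.0, 25.8 and 25.1 in the YS hens and of 27.2, 27.1 and 26.2 in the GYR hens. Both were lowest in YS_3, by a few percent, and the breeds overlapped in both.

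Another pair was several times more abundant. In the YS ovaries ENSGALG00000026445 reached 177, 190 and 187 FPKM, and in the GYR ovaries 193, 191 and 181. In the YS ovaries ENSGALG00000007878 reached 137, 144 and 140 FPKM, and in the GYR ovaries 139, 134 and 146. The lowest ovary of the former was YS_1 and that of the latter GYR_2. The breeds overlapped in both.

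The last of the first 10 members were ENSGALG00000008618 and ENSGALG00000036854, each with a ratio of 1.10. The FPKM of ENSGALG00000008618 were 52.3, 57.1 and 52.3 in the YS hens and 54.3, 53.2 and 52.1 in the GYR hens. A single ovary, YS_2, accounts for its width, since the remaining values lie between 52.1 and 54.3. The FPKM of ENSGALG00000036854 were 56.6, 53.6 and 57.2 in the YS hens and 58.8, 56.4 and 58.8 in the GYR hens. YS_2 was its lowest ovary, whereas it was the highest for ENSGALG00000008618.

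**Figure D2:**
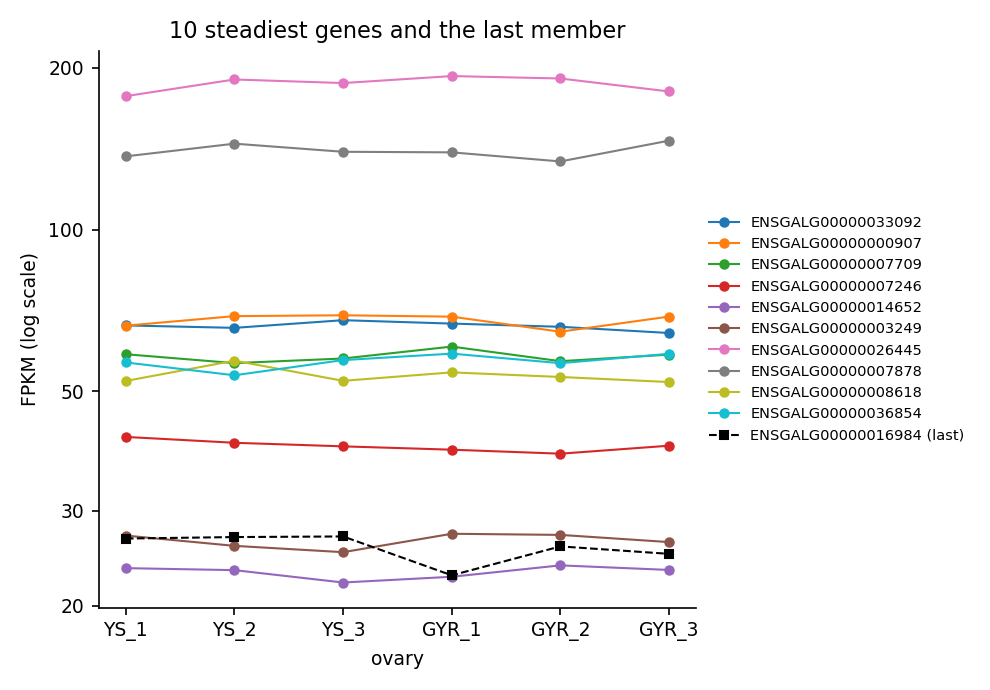
FPKM (log scale) of the 10 steadiest genes (circles) and of the last member, ENSGALG00000016984 (squares), in each of the 6 ovaries. The lines are close to flat, at levels from about 23.1 to 186 FPKM, and the last member dips in GYR_1 to 22.8.

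At the edge of the list the last member was ENSGALG00000016984, with a ratio of 1.18. It measured 26.6, 26.8 and 26.9 FPKM in the YS hens and 22.8, 25.8 and 24.95 in the GYR hens. Every YS ovary was above every GYR ovary, and GYR_1 was the lowest. The first gene outside the list was ENSGALG00000006010, also with a ratio of 1.18 after rounding. It measured 21.7, 23.9 and 23.0 FPKM in the YS hens and 25, 21.2 and 21.8 in the GYR hens, and its breeds overlapped.

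The members covered much of the abundance range that the rule allowed. Their mean FPKM ran from 22.2 to 318, with a median of 49.9, beside a median of 48.7 over the eligible genes. A mean between 25 and 50 FPKM was found for 39 members, one between 50 and 100 for 38, and one of at least 100 for 11. A mean between 20 and 25 was found for 12 members, among 109 eligible genes in that band. Because each ovary had to reach 20 FPKM, a gene with a mean just above 20 was eligible only where its values were close together. When the eligible genes were divided into 5 bins of equal size by mean FPKM, the bins held, from low to high, 30, 12, 24, 21 and 13 members. With the limit of 20 set on the mean in place of the lowest value, chosen with the values known, 94 of the 100 members were again on the list. This count was largely fixed by the choice. All 100 stayed eligible, and only genes with a mean of at least 20 and a lowest value below 20 could displace them. Spearman's rho between mean FPKM and ratio was 0.23 across the 3674 eligible genes and -0.10 across the members. The limit of 20 FPKM on the lowest value favours a positive rho over the eligible genes. From the lowest bin to the highest their median ratio was 1.45, 1.59, 1.59, 1.59 and 1.69. These are descriptions across genes of the same 6 libraries, and genes are not independent replicates.

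The most abundant member was ENSGALG00000008432. It had an FPKM of 341, 333 and 316 in the YS hens and of 316, 302 and 303 in the GYR hens. The breeds overlapped by less than 1 FPKM, between YS_3 and GYR_1. ENSGALG00000006261 followed with 264, 282 and 269 FPKM in the YS ovaries and 267, 269 and 302 in the GYR ovaries, and GYR_3 alone stood above the YS range. At the other end, ENSGALG00000008429 had the lowest mean of all members. It showed 20.9, 22.2 and 21.7 in the YS hens and 23.2, 23.8 and 21.3 FPKM in the GYR hens, with overlap between the breeds. ENSGALG00000001788 was close to it with 24.7, 21.5 and 22.1 FPKM in YS and 21.4, 22.7 and 22.8 in GYR, and YS_1 was its highest ovary.

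Within the members, the 6 ovaries took turns at the extremes, though not evenly. YS_1 was the highest ovary for 25 members, GYR_1 for 24, GYR_2 for 18, YS_3 for 12, YS_2 for 11 and GYR_3 for 10. The lowest ovary was YS_3 for 25 members, YS_1, YS_2, GYR_1 and GYR_3 for 16 each, and GYR_2 for 11. Over the eligible genes the order at the top was similar, with YS_1 highest for 30.6% and GYR_1 for 26.0%. The low end was more uneven there, with YS_3 lowest for 38.2% of the genes.

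For each gene the mean log2 FPKM of the 6 ovaries was then subtracted from each value, which gives the level of the gene in an ovary relative to its own mean. The median over the members was -0.03 for YS_3, -0.0082 for GYR_3, 0.0012 for YS_2, 0.0083 for GYR_1, 0.01 for GYR_2 and 0.02 for YS_1 on the log2 scale. The eligible genes had medians of -0.13 for YS_3, -0.05 for GYR_3, -0.01 for YS_2, 0.0012 for GYR_2, 0.09 for YS_1 and 0.10 for GYR_1. On the deposited scale the eligible genes were thus offset between libraries, YS_3 downwards and YS_1 and GYR_1 upwards. Library factors, taken as median ratios over the genes above 0 in every ovary, did not follow this in each library. They were 0.92 for YS_3, 0.98 for YS_2, 1.00 for YS_1, 1.03 for GYR_3, 1.04 for GYR_2 and 1.04 for GYR_1. The offset of the eligible genes is therefore not that of all genes of a library. In 5 of the 6 ovaries the median of the members lay nearer to 0 than that of the eligible genes, which the rule favours. In GYR_2 the eligible genes lay nearer to 0. YS_3 was also the library in which the 20 most abundant genes held the largest share of the FPKM (15.1%) and YS_1 that in which they held the smallest (9.67%). The part of these shares in the offset was not tested.

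**Figure D3:**
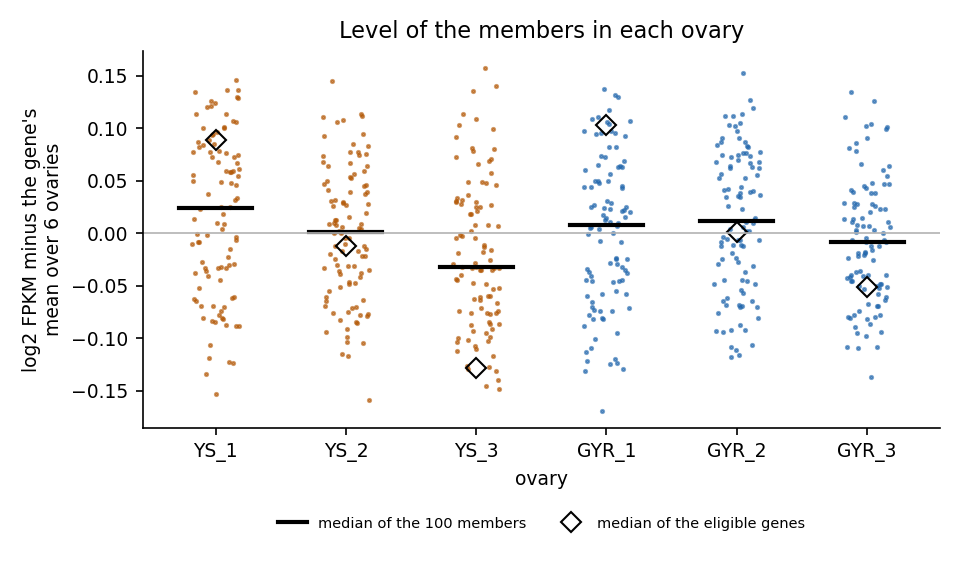
Level of each of the 100 members in each ovary (points, YS in orange and GYR in blue), as log2 FPKM minus the mean of the gene over the 6 ovaries. The black bars are medians over the members, between -0.03 and 0.02, and the diamonds are medians over the 3674 eligible genes, which range from -0.13 in YS_3 to 0.10 in GYR_1.

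Ovaries were also compared by pairs. Over the members the median absolute difference between the ovaries of a pair was 0.06 to 0.10 (log2) in the 6 pairs of the same breed. In the 9 pairs of different breeds it was also 0.06 to 0.10. Of these, the 3 pairs with the same number had 0.06 to 0.08 and the 6 with different numbers 0.07 to 0.10. For the eligible genes it was 0.13 to 0.23 with the same number and 0.22 to 0.40 with different numbers. Within a breed it was 0.21 to 0.36 for the eligible genes. By this median the closest pair over the members was YS_1 with GYR_1, in which 80 of the 100 members lay within 10%, and the count within 10% was highest, at 87, for YS_2 with GYR_2 and YS_2 with GYR_3. Over the eligible genes the closest pair was YS_2 with GYR_2, with a median difference of 0.13 and 51.2% of the genes within 10%. YS_1 and YS_3 were the farthest pair over the members (median 0.10, with 66 members within 10%). Pairs share ovaries, so these values were not tested.

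The spread of a member was also read within each breed. The ratio of the highest to the lowest FPKM had a median of 1.11 over the 3 YS ovaries and 1.10 over the 3 GYR ovaries. It was wider in YS for 53 members and wider in GYR for 47. Over the eligible genes these medians were 1.40 in YS and 1.30 in GYR. The breed means of a member were at most 1.11 times apart (median 1.03), and they were within 5% of each other for 76 members and within 2% for 38. Over the eligible genes the breed means were a median of 1.11 times apart, with a lower quartile of 1.05. The rule, which held the ratio of each member to at most 1.18, kept its breed means close. The highest and the lowest ovary belonged to different breeds in 67 members, and in 65.3% of the eligible genes.

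The difference between breeds, GYR minus YS, was fitted for 14918 genes as log2(FPKM + 1) in limma, whose linear models borrow information on replicate spread across genes. Over these genes 2 (0.0134%) had a Benjamini-Hochberg adjusted p-value under 0.05, and 255 (1.71%) met the criteria of the study, by which the log2 fold change exceeds 1 in size and the p-value before adjustment is under 0.05. The study applied these criteria to results of another method, DESeq2, so the count here is not the count of the study. By the unadjusted p-value of limma alone 1089 genes (7.30%) passed, 4.27% higher in GYR and 3.03% higher in YS. With 1 ovary left out, the first count was 1 to 5 (4 without YS_1 and 5 without GYR_3) and the second 217 to 669 (669 without YS_1). None of the 100 members passed any of these limits (0 in limma by adjusted p-value, 0 by the criteria and 0 by unadjusted p-value). The choice of the members had fixed this, so the count says nothing further about them. When hens with the same replicate number were treated as a block in limma, 1 of the 14918 genes had an adjusted p-value under 0.05. An unadjusted p-value of limma under 0.05 was found for 2491 of the 14918. The members gave 0 for both, which their choice had likewise fixed.

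Log2 fold changes of the members (GYR against YS) lay between -0.15 and 0.15, with a median of 0.01, and 57 were above 0 and 43 below. The median over all 14918 genes was 0.10. Since the rule took genes that were flat on the deposited scale, a median near 0 was fixed by the choice. After the libraries were rescaled by the median of their ratios the median over all genes was 0.0070 and that of the members -0.09, with 3 members above 0 and 97 below. After upper-quartile scaling the median of the members was -0.07, with 7 above 0 and 93 below. A scaling moves all genes of a library alike, so these counts describe the scalings and not the members.

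The ovaries of one breed lay above all those of the other in 6 members, 4 with GYR higher and 2 with YS higher. Over the 14918 genes this held for 13.0%, with 8.00% higher in GYR and 4.96% higher in YS. The member with the smallest p-value among those higher in GYR was ENSGALG00000002774. It showed 178, 183 and 178 in the YS hens and 203, 195 and 200 in the GYR hens. The gap between the breeds was wider than the range within either of them, with means of 180 ± 2.95 (SD, n = 3) in YS and 199 ± 3.74 (SD, n = 3) in GYR. The fitted log2 fold change of this gene was 0.15 with a standard error of 0.15. The other 3 members of this kind were less abundant and less far apart. ENSGALG00000012214 had 23.7, 21.9 and 22.8 FPKM in the YS hens and 24.9, 24.9 and 24.4 in the GYR hens. ENSGALG00000016894 had 27.7, 26.9 and 29.8 FPKM in the YS hens and 30.1, 30.8 and 30.2 in the GYR hens. In ENSGALG00000000811 the YS hens had 50.4, 49.1 and 47.6 FPKM and the GYR hens 54.8, 52.0 and 50.8. In the first and second of these the GYR hens lay close together and most of the spread was among the YS hens.

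Among the members higher in YS the smallest p-value belonged to ENSGALG00000040741. It measured 46.2, 45.1 and 43.7 FPKM in the YS hens and 39.3, 41.1 and 41.2 in the GYR hens, without overlap. Its means were 45.0 ± 1.25 (SD, n = 3) in YS and 40.6 ± 1.09 (SD, n = 3) in GYR, and the fitted log2 fold change was -0.15 with a standard error of 0.14. The standard errors that limma gave the members were all between 0.14 and 0.17. They are drawn towards the spread of other genes of like abundance, which is larger than the spread seen in the members. No test is read from these genes, whose values had chosen them.

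The rule was next applied to the ovaries of a single breed, so that steadiness could be read in 3 hens whose values had no part in the choice. These hens were not unrelated to the others in their profiles, since over the eligible genes of the main list ovaries of different breeds with the same number differed by a median of 0.13 to 0.23 (log2, absolute) and those with different numbers by 0.22 to 0.40. The part of this likeness in the values below was not tested. The 100 steadiest genes over the YS ovaries, taken from 3900 eligible genes, had ratios of up to 1.07 there. In the GYR ovaries the same genes had a median ratio of 1.23 (quartiles 1.14 and 1.37), beside 1.31 (quartiles 1.19 and 1.48) over the 3900 genes. At or below the median of the eligible genes lay 69 of the 100, and 20 were among the steadiest 10% in GYR. The median ratio of these genes in GYR was thus below that of the eligible genes. It was also above 1.07, the highest ratio that any of them had in YS. These values describe the rule applied to 3 ovaries and not the 100 members.

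In the other direction, the 100 steadiest genes over the GYR ovaries, of 4348 eligible, had ratios of up to 1.05 there. Their median ratio in the YS ovaries was 1.25 (quartiles 1.12 and 1.43), beside 1.44 (quartiles 1.27 and 1.71) over the eligible genes. In this direction 76 of the 100 were at or below the median and 31 were in the steadiest 10%. The widest of these genes in YS had a ratio of 7.88, although it had seemed steady in GYR. The lists made on each breed had 7 genes in common, of which 3 were members. Each of the lists shared 18 genes with the 100 members. No test was run on these shares, since the genes of a list come from the same libraries.

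**Figure D4:**
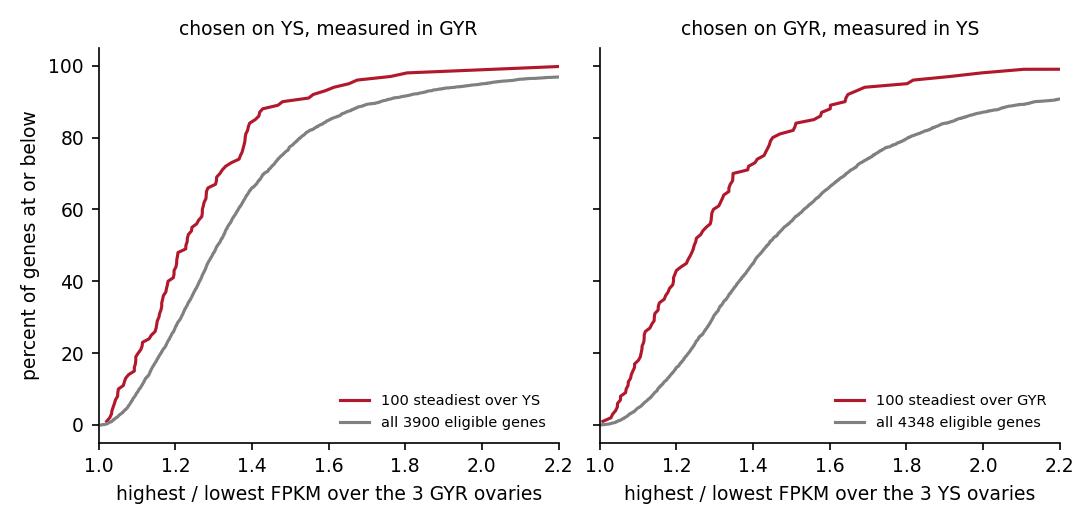
Percent of genes whose ratio of highest to lowest FPKM, over the 3 ovaries not used to choose them, is at or below the value on the horizontal axis (cut at 2.2). On the left genes chosen on YS are measured in GYR (median 1.23 for the 100 chosen, 1.31 for all eligible), and on the right genes chosen on GYR are measured in YS (median 1.25 against 1.44).

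A list was also made from each set of 5 ovaries and read in the ovary left out. The level in the left-out ovary differed from the mean of the others by a median of 0.09 (log2, absolute) for YS_2, 0.09 for GYR_2, 0.10 for GYR_3, 0.14 for GYR_1, 0.17 for YS_3 and 0.20 for YS_1. Over the eligible genes the same differences were 0.16 for YS_2, 0.16 for GYR_2, 0.16 for GYR_3, 0.24 for GYR_1, 0.29 for YS_3 and 0.27 for YS_1. By this median the chosen genes were closer than the eligible genes in each of the 6 ovaries. The 5 ovaries used for a choice always included the same-numbered ovary of the other breed. The part of the likeness between same-numbered ovaries in these values was not tested. YS_1 was the ovary least well matched by the genes chosen on the others, with 34 of the 100 chosen genes within 10% of their mean, whereas 71 were for YS_2 and 71 for GYR_2. The eligible genes differed between ovaries in a similar way, with 27.4% within 10% for YS_1, 44.8% for YS_2 and 43.1% for GYR_2, and were lowest for YS_3, at 24.7%.

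Which genes counted as the steadiest depended on each ovary. Of the 100 members, 45 were on the list made without YS_1, 51 without YS_3, 60 without GYR_1, 61 without GYR_3, 72 without GYR_2 and 73 without YS_2. All 25 members of the lowest ratios were on each of these 6 lists. This followed from the choice, because a ratio cannot grow when an ovary is left out and their ratios over 6 ovaries, up to 1.12, were already below the smallest limit over 5 ovaries, 1.13. Among the members ranked 26 to 50 this held for 5, and among the lower 50 for 0.

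The scale on which steadiness was read mattered as much. After median-of-ratios scaling 47 of the members were on the list, and after upper-quartile scaling or division by the summed FPKM 57 were in both cases. On all 3 of these lists were 32 members, and 21 were on none of them. The ratio of a member on the median-of-ratios scale went up to 1.34, with a median of 1.18, and 51 members stayed at or below the limit of 1.18. By contrast, the measure of spread changed little, since ranking by the standard deviation of log2 FPKM kept 86 members and ranking by the coefficient of variation kept 84. Lowering the FPKM limit to 10 kept 70, and leaving the 100 most abundant genes in changed no member.

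**Figure D5:**
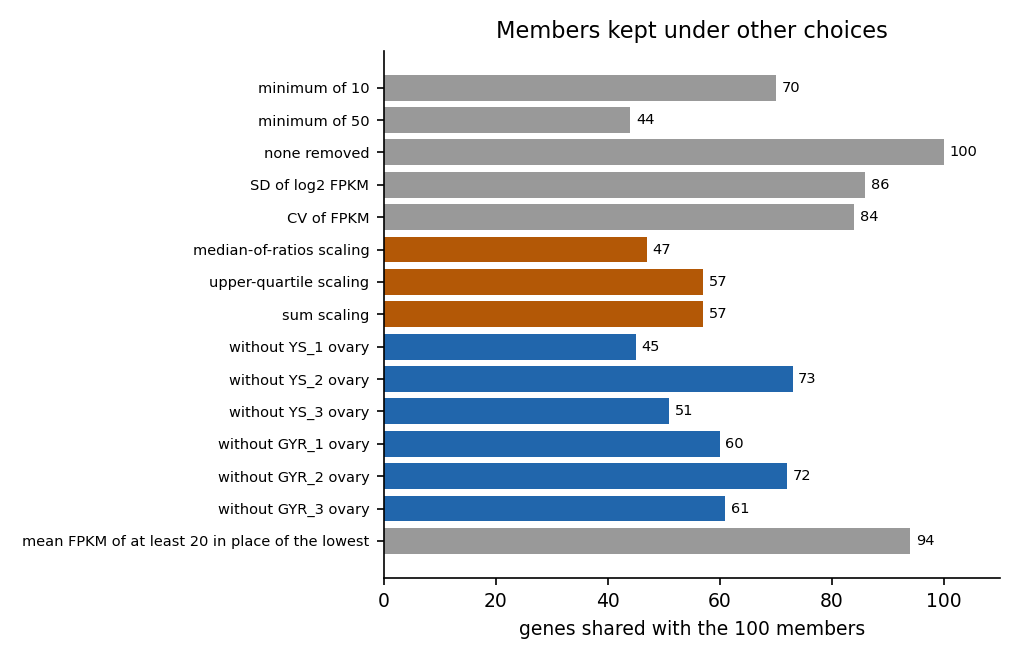
Number of the 100 members on the list under each other choice, for the 6 lists without 1 ovary (blue), the 3 scalings (orange) and other settings of the rule (grey). The bars start at 0 and range from 44 with a limit of 50 FPKM to 100 with no abundant gene removed.

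A group of 16 members was on the list under all 3 scalings and without each of the 6 ovaries. All were among the first 25 by ratio, with ratios of 1.07 to 1.12, coefficients of variation of 2.47% to 4.64% and mean FPKM from 23.1 to 186. The GYR mean of these genes was 0.967 to 1.05 times the YS mean. Their ranks alone placed them on the lists without 1 ovary, so what set them apart among the first 25 was the scalings. They include 8 of the first 10 members. The exceptions among those 10 were ENSGALG00000033092, the steadiest gene as deposited, which was on 2 of the 3 scaled lists, and ENSGALG00000000907, which was on 1. The remaining 8 genes of the group stood at ranks 11 to 25. The steadiest of these was ENSGALG00000008419, with a mean of 65.8 ± 2.49 FPKM (SD, n = 3) in YS and 63.6 ± 2.33 (SD, n = 3) in GYR. Next came ENSGALG00000003107, with 27.2 ± 1.15 FPKM (SD, n = 3) in YS and 28.7 ± 0.774 (SD, n = 3) in GYR. For both genes the difference between the breeds was smaller than the range within YS. The most abundant of the 8 was ENSGALG00000041914, with 142 ± 5.30 FPKM (SD, n = 3) in YS and 140 ± 8.35 (SD, n = 3) in GYR. The GYR mean of ENSGALG00000004825 was closest to its YS mean, at 55.1 ± 3.20 FPKM (SD, n = 3) against 55.2 ± 2.47 (SD, n = 3). None of the 16 separated the breeds, since their ranges overlapped in every case. Ranges without overlap were found in 13.0% of the 14918 genes fitted in limma and in 6 members. The 16 genes had been chosen by the closeness of their values over the 6 ovaries, so no result is read from their overlap. The last member, ENSGALG00000016984, was on 0 of the 3 scaled lists and on 1 of the 6 lists without an ovary.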

How the data were processed

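Ovarian RNA of 3 YS and 3 GYR hens was sequenced. The authors trimmed reads with fastp, aligned them with HISAT2 to the genome their paper names GRCg7b, and deposited FPKM with 2 decimals. Per the labels, the submitters' processing notes name GRCg6a, TopHat2 2.0.0, Bowtie2 2.0.0.5 and StringTie 2.2.0 instead, and this difference was not resolved. The RefSeq table of 25635 genes matched 0 identifiers, so lists and markers needing symbols were not run. Read counts were not used. Rows without an identifier were left out. Libraries differed in at least 19071 genes.

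The rule was applied with pandas 2.3.3, numpy 2.4.6 and scipy 1.17.1. The breeds were compared with limma 3.58.1 (R 4.3.3) in genes whose mean FPKM reached 0.5 (trend option, no covariate, two-sided, pseudocount 1), tested first on simulated data. A fold change on this scale understates that of low genes. Named members were the first 10, the last, the first gene outside, the 3 of highest and of lowest mean FPKM, and that of the smallest p-value in each direction. Others named were chosen after their values were seen. The members and lists were chosen with earlier results of these data known.

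Deviations of same-numbered ovaries from their breed mean correlated across genes at 0.42, 0.31 and 0.48 for numbers 1, 2 and 3. Across the members the correlations were lower, at 0.34, 0.14 and 0.18 in the same order. What a number marks is not stated in the sources used here, so the pairing rests on these values.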

Additional observations from a re-analysis of the deposited data

Results flagged for a closer look

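Every library except YS_1 also held 3458 rows with a value but no gene identifier. Each of these rows held exactly the same FPKM in those 5 libraries, and their sum was 9557 in each. Of them, 108 had an FPKM of at least 20. They made up 1.85% to 2.03% of the summed FPKM of a library. They drew attention as values outside the comparisons and were not used. Groups of 3 ovaries are too small for a search for single deviating hens.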

How the results depend on the processing

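With a limit of 50 FPKM only 44 of the 100 members were eligible. All 44 were kept, which was fixed in advance, since a higher limit only removes other genes from the ranking. With median-of-ratios scaling 47 were kept, and with upper-quartile scaling or division by the sum 57 each. Leaving out 1 ovary kept 45 (without YS_1) to 73 (without YS_2). The ratio of the last member was 1.13 to 1.16 over 5 ovaries. The median log2 fold change of the members was -0.093 after median-of-ratios and -0.065 after upper-quartile scaling. In 9 other settings it lay within the spread between ovaries of a breed (-0.0045 to 0.02 with an ovary left out). Among these, leaving out the filter and adding the replicate block could not change it. The rest were read from the values that had chosen the members. Relative to their own mean the members had a median of 0.090 in YS_3 after median-of-ratios scaling, and of 0.082 in GYR_2 and -0.069 in GYR_3 after division by the sum. These follow from dividing each library by its factor. The medians in ovaries not used to choose genes stayed within the spread over the genes in 8 of 8 settings. That spread is wider than the difference between chosen and eligible genes, so this count could hardly have come out otherwise. In these settings the median in GYR was 1.18 to 1.23, beside 1.31 to 1.32 over the eligible genes. In YS it was 1.24 to 1.31, beside 1.41 to 1.45.

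Over all 14918 genes, the number with an adjusted p-value under 0.05 in limma was 2. It was 1 with a pseudocount of 0.1, without a filter on low FPKM (20508 genes above 0 in some ovary), after upper-quartile scaling, and with the replicate number as a block, and 1 to 5 with each ovary left out (4 without YS_1, 5 without GYR_3). The number at the criteria of the study was 463 with a pseudocount of 0.1 and 217 to 669 with each ovary left out, with 669 without YS_1 and 421 without GYR_2. With the replicate block it was 302. In all of these settings 0 members were called, which the choice of the members had fixed. The causes of the changes in the counts over all genes were not tested. The files hold no read counts per gene, and the part of counting error in the spread of the members was not estimated.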
